A study of Mus musculus with 8 samples.

Results

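Splicing removes introns from pre-mRNA and is carried out by the spliceosome, which is assembled on each intron from small nuclear ribonucleoproteins (snRNPs) and joining protein factors. Each snRNP of the Sm type holds a small nuclear RNA wrapped by a ring of Sm proteins, while U6 snRNA carries a ring of Lsm proteins instead. SR proteins mostly bind exonic enhancers and promote use of nearby splice sites, and heterogeneous nuclear ribonucleoproteins (hnRNPs) package nascent transcripts and often oppose exon inclusion. The transcripts of these protein classes were followed in cells of renin lineage (CoRL), the cells of the juxtaglomerular apparatus that make renin or descend from cells that did, after abrupt loss of podocytes.

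Members were all genes whose array symbol begins with Snrp, Sf3a or Sf3b and a digit, Prpf and a digit, Srsf or Sfrs and a digit, Hnrnp or Hnrp, or Lsm and a digit. The rule used no measured value. It found 71 genes on 128 probes, of 16593 genes on 23978 probes with a gene symbol. These were 11 Snrp, 9 Sf3a and Sf3b, 11 Prpf, 9 SR protein, 18 hnRNP and 13 Lsm genes. Of the 71 genes, 61 had a probe detected on all arrays of at least 1 group, 51 had a probe detected on all 8 arrays, and 6 (Lsm1, Lsm11, Prpf31, Sf3a2, Snrpc and Srsf12) were detected on none. A probe was detected where its deposited detection p-value was under 0.01.

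ZsGreen-sorted CoRL came from 4 mice with experimental focal segmental glomerulosclerosis (FSGS) and from 4 age-matched uninjured mice at baseline. The FSGS mice were killed on day 5 after the last of 2 intraperitoneal doses of sheep anti-glomerular antibody, given 24 hours apart at 12 mg per 20 g of body weight, and the uninjured mice received no antibody. All 8 mice were Ren1cCre×Rs-ZsGreen-R, in which Cre under the renin regulatory region turns on ZsGreen permanently in any cell that expresses or has expressed renin, so the sorted cells share a history of renin expression and need not express it when sorted. RNA of the sorted cells was amplified and hybridised to Illumina MouseRef-8 v2.0 arrays, 1 array per mouse, and levels below are quantile-normalised log2 intensities averaged over the probes of a gene.

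The arrays detected 11153 to 11700 probes in day 5 CoRL and 5793 to 12052 in uninjured CoRL, the lowest number being that of uninjured replicate 1. Of the 5 renin cell markers listed, Nrp1 and Aldh1a1 were measured and Ren1, Ren2 and Akr1b7 were not analysed here. Nrp1 was detected on all 8 arrays and was higher in day 5 CoRL by 1.16 on the log2 scale (limma adjusted p = 0.00926). Aldh1a1 was detected on 2 arrays of each group, with a change of -0.16 (limma adjusted p = 0.91). Of 4 podocyte markers measured, 3 had the higher mean in day 5 CoRL and 1, Ptpro, passed at 0.05. Of 10 smooth muscle and pericyte markers, 6 had the higher mean and 1, Des, passed. Macrophage and monocyte markers were higher in day 5 CoRL for all 16 genes measured, with a mean log2 level of 8.95 to 10.55 per mouse in day 5 CoRL and 7.12 to 7.63 in uninjured CoRL, and 15 of them passed at 0.05. They were not absent at baseline, since 10 of 16 were detected on all uninjured arrays. Proximal tubule markers were lower in day 5 CoRL for all 17 genes measured, with a mean log2 level of 7.77 to 9.98 in day 5 CoRL and 10.40 to 10.63 in uninjured CoRL, and 8 passed at 0.05. Of these 17, 14 were detected on all day 5 arrays and 16 on all uninjured arrays. The part of these cells in the splicing gene results was not tested, and in such sorted bulk RNA a change in the mix of cells and a change of RNA per cell cannot be told apart.

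None of the 71 members passed the study's threshold, an adjusted p of at most 0.01 in limma (Benjamini-Hochberg over all 16593 genes), which 2.31% of all genes passed. Before adjustment, at a p under 0.05, day 5 levels were higher for 24 of the 71 genes and lower for 2, against 15% and 15.5% of all genes. All of these members were fully detected in at least 1 group, and among the 6964 genes of that kind 27% were higher and 25.3% lower. The methods' Bayesian test called 3 members (4.23%) at the study's threshold (Snrpb2, Snrpg and Srsf9), against 9.87% of all genes. At a wider threshold of an adjusted p of at most 0.05, 11 members (15.5%) were higher and 1 was lower, against 8.52% of all genes higher and 5.81% lower. Among genes with a probe detected on all arrays of a group, to which all 12 called members belong, 17.6% were called higher, and the like share of the 61 members with such a probe was 18%. With scaling of each array to its 75th percentile in place of quantile normalisation, 9 members were higher and 4 lower (12.7% and 5.63%). Over all genes 7.37% were then higher and 26.9% lower, and the median change was -0.52. The 4 lower members were Lsm1, Prpf4b, Snrpn and Srsf12, without Snrpd3. Lsm1 and Srsf12 were detected on no array, and Prpf4b on 1 uninjured array.

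Most members did not pass the test, and most had the higher mean in day 5 CoRL. This held for 49 of 71 members (69%), against 44.7% of all genes, and the median log2 change, day 5 FSGS minus uninjured, was 0.20 against -0.03 over all genes. In 17 members every day 5 mouse lay above every uninjured mouse, as in 10.4% of all genes, and in 1 member (Snrpd3) every day 5 mouse lay below, as in 9.61% of all genes. All of them were fully detected in at least 1 group, and among genes of that kind the shares were 19.8% above and 15.9% below. The standard error of a member's change was 0.16 at the median and ran from 0.08 to 0.49. The number called higher at 0.05 depended on single mice. It was 1 without day 5 replicate 1 (1.41%, against 4.22% of all genes) and 2 without day 5 replicate 2 (2.82% against 3.28%). It was 15 without day 5 replicate 3 (21.1% against 11.8%) and 5 without day 5 replicate 4 (7.04% against 4.78%). It was 7, 6, 4 and 5 without uninjured replicates 1, 2, 3 and 4 in turn. Those shares were 9.86%, 8.45%, 5.63% and 7.04%, against 6.21%, 4.47%, 5.29% and 6.59% of all genes. Over all genes the share called higher ran from 3.28% without day 5 replicate 2 to 11.8% without day 5 replicate 3. Of the 12 called genes, Lsm3 kept its call without any 1 mouse. Snrpg lost it for 1 of the 8 mice, Sf3b3 for 2, Prpf19 for 4, Snrpb for 5, Hnrnpc, Sf3a3, Snrpb2 and Snrpd3 for 6, and Lsm14a, Snrpd1 and Srsf9 for 7, with adjusted p-values of at most 0.114 in all of these. None of the 12 lost its call without day 5 replicate 3.

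**Figure D1:**
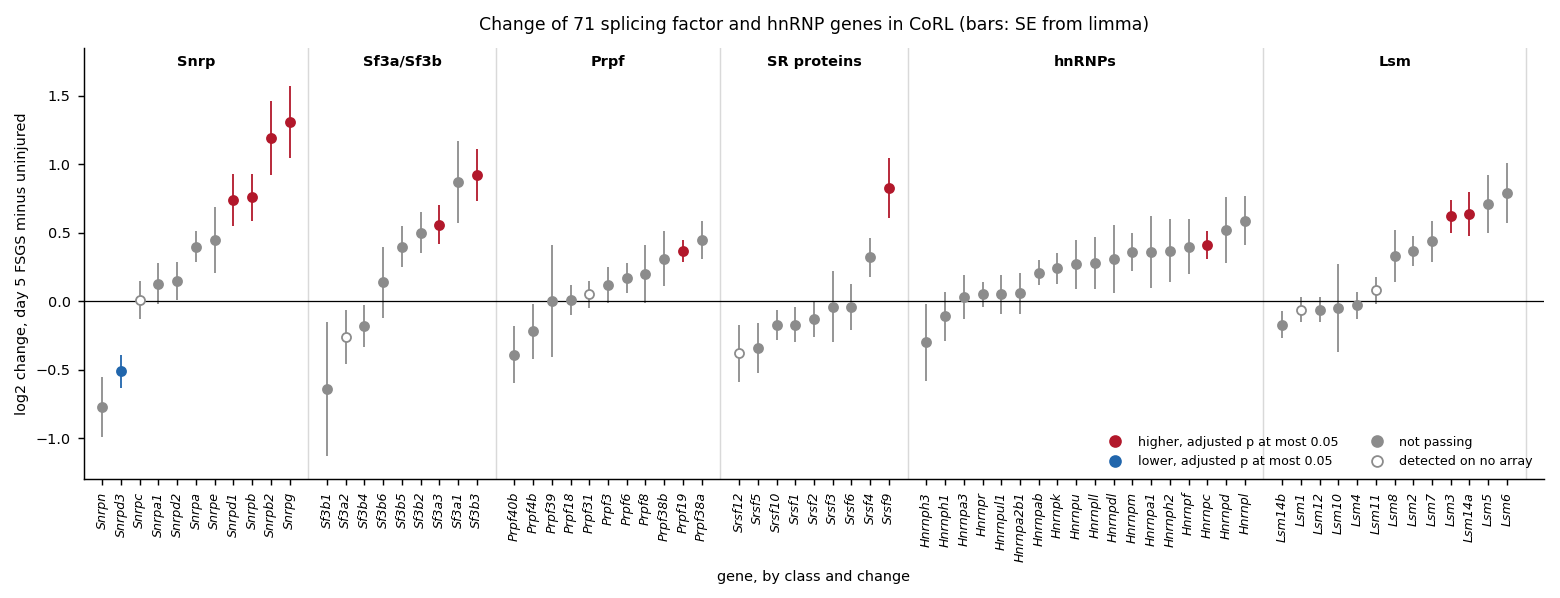
Log2 change (day 5 FSGS minus uninjured, n = 4 mice each) of each of the 71 genes, ordered by size within 6 classes; bars are limma standard errors, red and blue mark an adjusted p of at most 0.05 and open circles mark genes detected on no array. Snrp genes hold both the highest change, Snrpg at 1.31, and the lowest, Snrpn at -0.77, and 16 of the 18 hnRNP points lie above 0.

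Snrp genes, which encode the Sm ring and the proteins particular to U1 and U2 snRNPs, held the widest spread of changes, from -0.77 to 1.31 with a median of 0.40. That median was 0.14 in the authors' processed table and 0.15 without background correction. It was 0.24 when arrays were scaled to the 75th percentile, and 0.59 when they were scaled to the median. These scalings put the median of all genes at -0.52 and -0.18. The Snrp median lay 0.77 above it in both, and 0.43 above it with quantile normalisation. Either scaling moves all genes of an array by the same amount, so the 0.77 is equal in both by construction and counts once. Of the 11 Snrp genes, 4 (36.4%) rose and 1 fell at an adjusted p of at most 0.05, 6 did not pass, and 9 (81.8%) had the higher mean in day 5 CoRL. Over all genes 8.52% rose, 5.81% fell and 44.7% had the higher mean. Among genes with a probe detected on all arrays of a group these shares were 17.6%, 10.8% and 52%. The mean difference of the Snrp genes from the uninjured mean was 0.29, 0.55, 0.12 and 0.44 in day 5 replicates 1 to 4, against -0.01, 0.06, -0.02 and -0.04 in the uninjured replicates. All 4 day 5 mice thus lay above the uninjured mice for the class mean.

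In the Sm ring, Snrpg, which encodes Sm protein G, showed the largest rise of all members. Its log2 levels were 8.71, 9.36, 8.09 and 8.74 in day 5 replicates 1 to 4, against 7.71, 7.56, 7.34 and 7.05 in uninjured replicates 1 to 4. No day 5 value overlapped an uninjured one, replicate 3 being the lowest of the day 5 mice. The change was 1.31 (SE 0.26, adjusted p = 0.0181), a 2.48-fold higher level, and was 0.83 in the authors' table. It missed the 0.05 threshold only without day 5 replicate 1 among the 8 single removals (adjusted p = 0.0505).

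Snrpb, which encodes the Sm proteins B and B′, read 6.27, 6.50, 6.30 and 6.11 in day 5 CoRL and 5.42, 6.0, 5.30 and 5.43 in uninjured CoRL. The groups did not overlap, and uninjured replicate 2 came closest to the day 5 mice. The change of 0.76 (SE 0.17, adjusted p = 0.0235) averaged a pair of unlike probes. The probe detected on all 4 day 5 arrays and 1 uninjured array rose by 1.19 (SE 0.19, adjusted p = 0.00894 when each named probe was tested alone), while a probe detected on no array had a change of 0.32 (SE 0.20, adjusted p = 0.342). The gene's change was 0.28 in the authors' table. The detected Snrpb probe was the only one of 128 member probes at or under 0.01.

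Snrpd1, which encodes Sm D1, read 7.54, 8.07, 7.22 and 7.85 in day 5 CoRL against 6.68, 6.90, 7.17 and 6.96 in uninjured CoRL. The lowest day 5 mouse, replicate 3, stood just above uninjured replicate 3, and the rest stood well clear. The rise was 0.74 (SE 0.19, adjusted p = 0.0397), and it was 0.36 in the authors' table. Of the other ring genes, Snrpe had a change of 0.45 (SE 0.24, adjusted p = 0.252) and Snrpd2 one of 0.15 (SE 0.14, adjusted p = 0.557), and neither passed the test.

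Snrpd3, which encodes Sm D3, was the single member called lower by limma at an adjusted p of at most 0.05. Its levels were 8.51, 8.82, 8.36 and 8.72 in day 5 CoRL, against 9.04, 9.03, 9.15 and 9.22 in uninjured CoRL. The 4 uninjured values lay within a narrow band above all day 5 values. The change was -0.51 (SE 0.12, adjusted p = 0.0305), a 1.42-fold lower level, and with scaling of each array to its median it was -0.19. The methods' Bayesian test did not call Snrpd3 at 0.05, and the 1 member that it called lower was Snrpn. Sm D3 and Sm B form a dimer before they join the ring, and their transcripts differed in direction here.

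Snrpn, which encodes Sm N, a close relative of Sm B expressed from the paternal allele and best known from brain and heart, had the lowest change of all members. Its levels were 5.87, 5.39, 6.23 and 5.23 in day 5 CoRL and 6.22, 6.38, 6.57 and 6.64 in uninjured CoRL. One day 5 mouse, replicate 3, lay level with uninjured replicate 1, and the other day 5 mice lay below all uninjured mice. The change of -0.77 (SE 0.22, adjusted p = 0.0539) narrowly missed the wider threshold, and without day 5 replicate 3 the adjusted p was 0.00866. One of its probes, detected on all 8 arrays, had a change of -1.44 (SE 0.43, adjusted p = 0.0628 by probe), and the other, detected on no array, one of -0.10. Snrpb and Snrpn transcripts are alike in sequence, so their probes may share hybridisation, and the split between them is uncertain to that extent.

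Among proteins particular to 1 snRNP, Snrpb2, which encodes protein B″ of U2 snRNP, read 6.40, 7.13, 6.05 and 7.12 in day 5 CoRL against 5.35, 5.84, 5.18 and 5.59 in uninjured CoRL. Its probe was detected on all 4 day 5 arrays and on no uninjured array, so the uninjured level is only a bound. Day 5 CoRL were at least 1.23-fold higher, set against the lowest signal of detected probes on each uninjured array, and the fitted change was 1.19 (SE 0.27, adjusted p = 0.0257). It was 0.38 in the authors' table and 0.43 without background correction, where the call at 0.05 was also made. Snrpa, which encodes protein A of U1 snRNP and is related to Snrpb2, had a change of 0.40 (SE 0.11, adjusted p = 0.0533) without overlap between groups, its probes being at 0.65 (adjusted p = 0.032 by probe) and 0.14 (adjusted p = 0.487). Snrpa1, which encodes protein A′ of U2 snRNP, had a change of 0.13 (SE 0.15, adjusted p = 0.617), with probes at 0.42 and -0.16.

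SF3a and SF3b are the complexes by which U2 snRNP holds the branch point of the intron. Of their 9 genes measured, Sf3b3 and Sf3a3 rose, none fell and 7 did not pass at 0.05. The share that rose was 22.2%, against 8.52% of all genes and 17.6% of genes fully detected in at least 1 group. Changes ran from -0.64 to 0.92 with a median of 0.40, which was 0.72 with median scaling. With Snrpa1 and Snrpb2 these 9 make 11 U2 snRNP genes, of which 8 (72.7%) had the higher mean in day 5 CoRL, against 44.7% of all genes. That grouping was made after the values had been seen.

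Sf3b3, a scaffold protein of SF3b, read 8.30, 8.51, 7.98 and 8.14 in day 5 CoRL and 6.78, 7.45, 7.45 and 7.54 in uninjured CoRL. The groups were well separated, and uninjured replicate 1 lay below the other uninjured mice. The change was 0.92 (SE 0.19, adjusted p = 0.0201), a 1.9-fold higher level, and was 0.53 in the authors' table. Its call was lost without day 5 replicate 1 or day 5 replicate 2, the higher of those adjusted p-values being 0.0649. Sf3a3, an SF3a subunit, read 8.80, 8.84, 8.41 and 8.84 in day 5 CoRL against 7.92, 8.22, 8.21 and 8.31 in uninjured CoRL. The low mouse of the day 5 group, replicate 3, was still above every uninjured mouse. The change was 0.56 (SE 0.14, adjusted p = 0.0325), and 0.88 with median scaling.

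Sf3a1, which tethers SF3a to U2 snRNP, had a change of similar size but a wide uninjured spread. It read 6.85, 7.09, 6.69 and 7.17 in day 5 CoRL against 5.13, 6.18, 6.39 and 6.61 in uninjured CoRL, and it was detected on 2 of the uninjured arrays. The groups did not overlap, yet the change of 0.87 (SE 0.30) had an adjusted p of 0.0906. Sf3b2 and Sf3b5 had changes of 0.50 (adjusted p = 0.0641) and 0.40 (adjusted p = 0.12). Sf3b6, whose protein touches the branch point adenosine, had a change of 0.14 (SE 0.26, adjusted p = 0.78) and Sf3b4 one of -0.18 (SE 0.15, adjusted p = 0.45). Sf3b1, the largest SF3b subunit, was detected on 1 day 5 array and 2 uninjured arrays, and its change of -0.64 carried the largest standard error of the members, 0.49.

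Prpf genes encode pre-mRNA processing factors of the U4/U6.U5 tri-snRNP and of the steps that activate the spliceosome. Their median change was 0.12 over 11 genes, 8 (72.7%) had the higher mean in day 5 CoRL, and only Prpf19 (9.09%) passed at 0.05. Over all genes 44.7% had the higher mean and 8.52% rose. Among genes fully detected in at least 1 group these shares were 52% and 17.6%. The Prpf median was 0.03 without uninjured replicate 2 and 0.19 without uninjured replicate 3, and under 75th percentile and median scaling it was 0.04 and 0.38. With these scalings, which give the same distance by construction, the Prpf median lay 0.56 above the median of all genes. With quantile normalisation it lay 0.16 above. Prpf19, the ubiquitin ligase at the core of the complex that stabilises the active spliceosome, read 8.65, 8.67, 8.64 and 8.53 in day 5 CoRL and 8.23, 8.34, 8.21 and 8.24 in uninjured CoRL. Both groups were tight and clearly apart, with SDs of 0.06. The change was 0.37 (SE 0.08, adjusted p = 0.0247). Its detected probes had changes of 0.53 and 0.62 (adjusted p = 0.0138 and 0.0268 by probe) and a probe detected on no array one of -0.05, so the gene average understates the detected probes. With scaling to the 75th percentile the gene's change was 0.11.

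Prpf38a, a protein of the spliceosome on its way to activation, had the largest Prpf change at 0.45 (SE 0.14, adjusted p = 0.0729). All 4 of its probes were higher in day 5 CoRL, by 0.25 to 0.70. Prpf3, a U4/U6 protein, had a change of 0.12 (SE 0.13, adjusted p = 0.583), the mean of 5 probes from -0.52 to 0.57. These probes read different directions from 1 gene, and which transcripts each of them reads was not examined. Prpf8, the scaffold at the catalytic centre, had a change of 0.20 (SE 0.21, adjusted p = 0.586), and Prpf6, a bridge within the tri-snRNP, one of 0.17 (SE 0.11, adjusted p = 0.361). Prpf18, a factor of the second catalytic step, had a change of 0.01 (SE 0.11, adjusted p = 0.955). Prpf40b, a U1-associated factor, had a change of -0.39 (SE 0.21, adjusted p = 0.268) and was not detected on all arrays of either group.

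Among the 9 SR protein genes, 2 (22.2%) had the higher mean in day 5 CoRL, against 44.7% of all genes. The median was -0.13, a sign that turned with scaling of each array to its median, when it was 0.06. It was -0.28 with scaling to the 75th percentile, -0.04 in the authors' table and -0.20 without uninjured replicate 2. The median of all genes was -0.18 with median scaling and -0.52 with 75th percentile scaling. The SR median differed from it by 0.24 in both, which is the same by construction, and by -0.10 with quantile normalisation. No difference between classes was tested. Srsf9 was the only SR gene to pass at 0.05 (11.1%, against 8.52% of all genes and 17.6% of genes fully detected in at least 1 group), and none fell. It read 10, 10.23, 9.30 and 10.27 in day 5 CoRL against 9.02, 9.32, 8.95 and 9.19 in uninjured CoRL. Day 5 replicate 3 fell within the uninjured range, just below uninjured replicate 2, and the remaining day 5 mice lay above all uninjured mice. The change was 0.83 (SE 0.22, adjusted p = 0.0388), and without day 5 replicate 3 it was 1.05 (adjusted p = 0.00164).

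Srsf1, the closest relative of Srsf9, had a change of -0.17 (SE 0.13, adjusted p = 0.458). Srsf4 had a change of 0.32 (SE 0.14, adjusted p = 0.15). Srsf5 had the lowest change among detected SR genes, at -0.34 (SE 0.18, adjusted p = 0.24), with levels of 10.55 to 10.99 in day 5 CoRL and 10.74 to 11.42 in uninjured CoRL. These ranges overlapped. Srsf2, Srsf3, Srsf6 and Srsf10 ranged from -0.17 to -0.04 and none passed. Srsf10, whose protein represses splicing when it loses phosphate in heat shock, had detected probes at -0.32 and -0.42 and an undetected one at 0.24.

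Changes of hnRNP genes were small. Of 18 genes, all with a probe detected on all arrays of a group, 16 (88.9%) had the higher mean in day 5 CoRL. That held for 44.7% of all genes and 52% of genes with such a probe. The range of hnRNP changes was -0.30 to 0.59 with a median of 0.27. That median was 0.16 without day 5 replicate 4, again 0.16 when arrays were scaled to the 75th percentile, and 0.51 with median scaling. With these scalings, which give the same distance by construction, the hnRNP median lay 0.68 above the median of all genes. With quantile normalisation it lay 0.31 above. Only Hnrnpc rose at 0.05 (5.56%, against 8.52% of all genes and 17.6% of genes with such a probe), and none fell. Hnrnpc, whose protein coats uridine tracts of nascent transcripts, read 10.19, 10.37, 10.04 and 10.23 in day 5 CoRL and 9.92, 9.66, 9.78 and 9.82 in uninjured CoRL. The groups were separate by a small step. The change was 0.41 (SE 0.10, adjusted p = 0.0353), or 0.65 with median scaling, with probes at 0.65 (adjusted p = 0.0238 by probe) and 0.18 (adjusted p = 0.471).

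Hnrnpl, a reader of CA repeats, had the largest hnRNP change. It read 7.67, 7.91, 7.60 and 8.32 in day 5 CoRL against 7.37, 7.24, 7.02 and 7.51 in uninjured CoRL, with no overlap. The change of 0.59 (SE 0.18, adjusted p = 0.0616) did not pass at 0.05. Hnrnpd, which binds AU-rich elements, had a change of 0.52 (SE 0.24, adjusted p = 0.19), with levels of 7.54 to 8.11 in day 5 CoRL and 6.72 to 7.88 in uninjured CoRL. Hnrnpab had a change of 0.21 (SE 0.09, adjusted p = 0.143), small but without overlap, and Hnrnpm one of 0.36 (SE 0.14, adjusted p = 0.123). Hnrnph3 and Hnrnph1 were the pair with the lower mean in day 5 CoRL, at -0.30 (SE 0.28, adjusted p = 0.528) and -0.11 (SE 0.18, adjusted p = 0.735). The 5 Hnrnph1 probes ran from -0.18 to -0.03.

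Lsm genes encode the ring that binds the end of U6 snRNA (Lsm2 to Lsm8), the cytoplasmic ring of mRNA decay in which Lsm1 takes the place of Lsm8, the histone mRNA processing subunits Lsm10 and Lsm11, and factors of mRNA storage such as Lsm14a. Of 13 genes, 2 (15.4%) rose at 0.05, against 8.52% of all genes and 17.6% of genes fully detected in at least 1 group. The other 11 did not pass, and the median change of the Lsm genes was 0.33. It was 0.18 without day 5 replicate 4 and 0.60 with median scaling. In the U6 ring, 6 of 7 genes had the higher mean in day 5 CoRL (median change 0.44), against 2 of 6 other Lsm genes (median change -0.06). This division was made after the values had been seen and is a description.

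Lsm3 was the member with the lowest adjusted p. It read 8.88, 9.15, 8.69 and 8.81 in day 5 CoRL against 8.30, 8.30, 8.11 and 8.32 in uninjured CoRL. The lowest day 5 mouse lay above the highest uninjured mouse, and the uninjured mice lay close together. The change was 0.62 (SE 0.12, adjusted p = 0.0156), a 1.54-fold higher level, and Lsm3 was the only member called at 0.05 without each of the 8 mice in turn (highest adjusted p 0.0469). It was not called by the methods' Bayesian test (adjusted p = 0.0534) or unequal-variance test (adjusted p = 0.0936).

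Other U6 ring genes lay just beyond the threshold. Lsm6 read 7.03, 6.93, 6.84 and 6.83 in day 5 CoRL and 5.39, 6.37, 6.22 and 6.47 in uninjured CoRL, where it was detected on 2 arrays, and its change was 0.79 (SE 0.22, adjusted p = 0.0511), or 0.28 (adjusted p = 0.0333) in the authors' table. Lsm5 read 9.35, 9.71, 8.88 and 9.86 in day 5 CoRL and 8.90, 8.60, 8.64 and 8.82 in uninjured CoRL, with a change of 0.71 (SE 0.21, adjusted p = 0.0551). Only day 5 replicate 3 fell within the uninjured range for Lsm5, and without that mouse the adjusted p was 0.00519. Lsm2 and Lsm7 had changes of 0.37 (adjusted p = 0.0577) and 0.44 (adjusted p = 0.0842), both with no overlap. Lsm8 had a change of 0.33 (adjusted p = 0.31) and Lsm4 one of -0.03 (SE 0.10, adjusted p = 0.879).

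Lsm14a, a protein of cytoplasmic granules that store mRNA, read 9.32, 9.68, 9.31 and 9.97 in day 5 CoRL against 8.81, 9.06, 8.98 and 8.87 in uninjured CoRL. All day 5 mice lay above all uninjured mice. The change was 0.64 (SE 0.16, adjusted p = 0.0349). Lsm12 had a change of -0.06 (SE 0.09, adjusted p = 0.686), and Lsm1 and Lsm11 were not detected on any array.

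**Figure D2:**
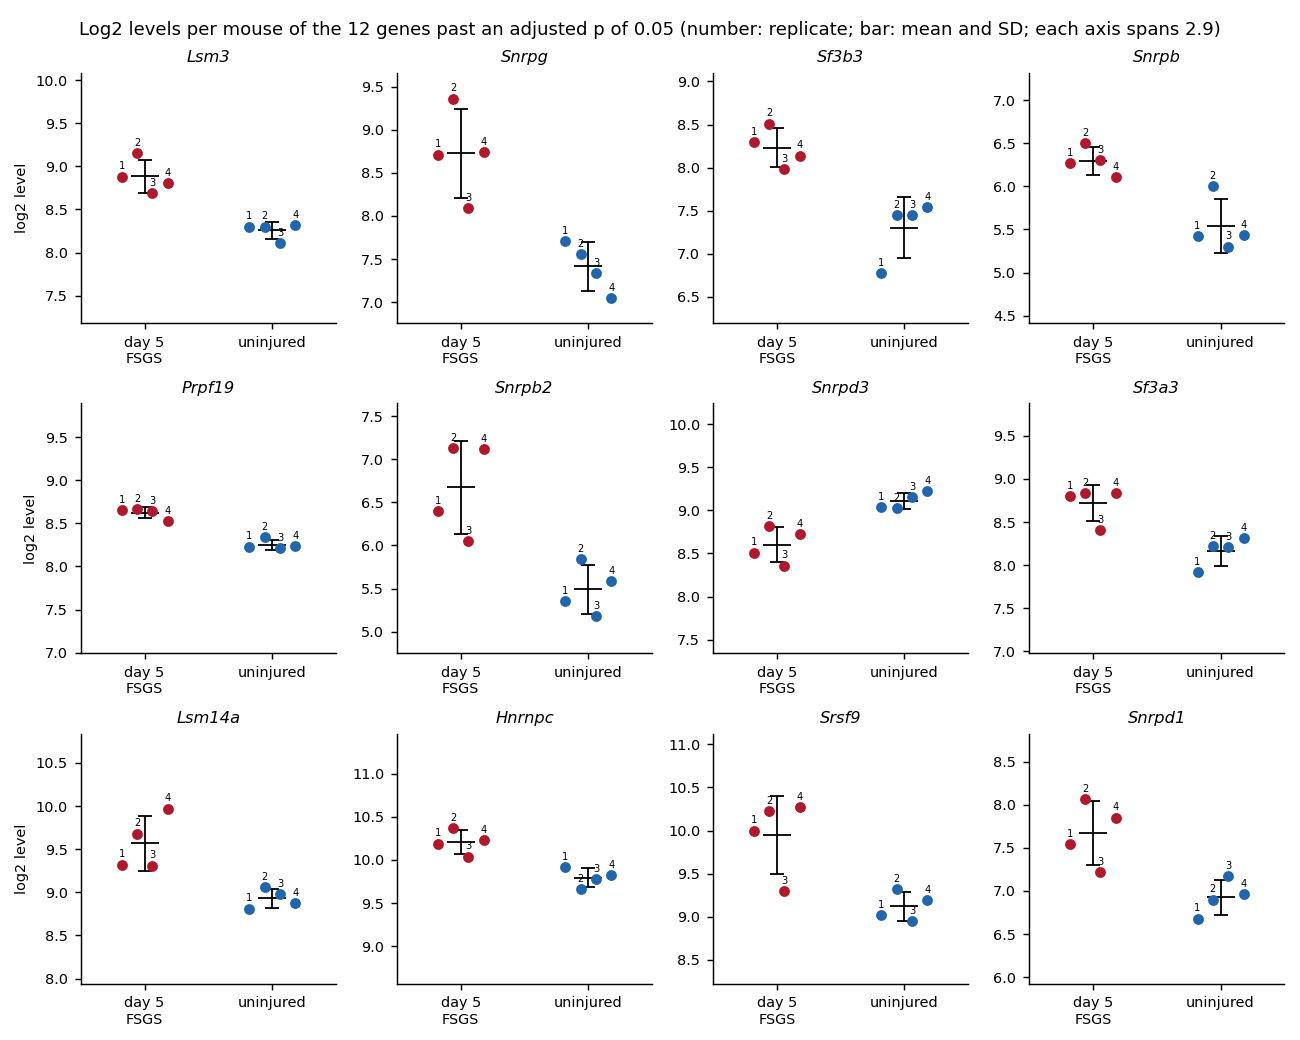
Log2 level per mouse of the 12 genes past an adjusted p of 0.05, day 5 FSGS (red) left of uninjured (blue), n = 4 each; points carry the replicate number, bars give the mean and SD, and every panel spans the same range of log2 units. Snrpd3 is the gene with all day 5 points below the uninjured ones, and Srsf9 is the gene whose day 5 replicate 3, at 9.30, falls among the uninjured values.

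Related genes were set side by side, 11 of 14 listed pairs having both genes measured. The pair differed in sign for Snrpb and Snrpn (0.76 and -0.77), Srsf9 and Srsf1 (0.83 and -0.17), and Lsm14a and Lsm14b (0.64 and -0.17), where 1 gene of each pair passed at 0.05. It also differed for Srsf4 and Srsf6 (0.32 and -0.04), Hnrnph2 and Hnrnph1 (0.37 and -0.11) and Lsm11 and Lsm10 (0.08 and -0.05), where no gene passed. Both genes had the higher mean in day 5 CoRL for Snrpb2 and Snrpa (1.19 and 0.40), Hnrnpl and Hnrnpll (0.59 and 0.28), Hnrnpd and Hnrnpdl (0.52 and 0.31), Hnrnpa1 and Hnrnpa2b1 (0.36 and 0.06) and Prpf38a and Prpf38b (0.45 and 0.31). Of these 10 genes only Snrpb2 passed at 0.05. No difference within a pair was tested.

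**Figure D3:**
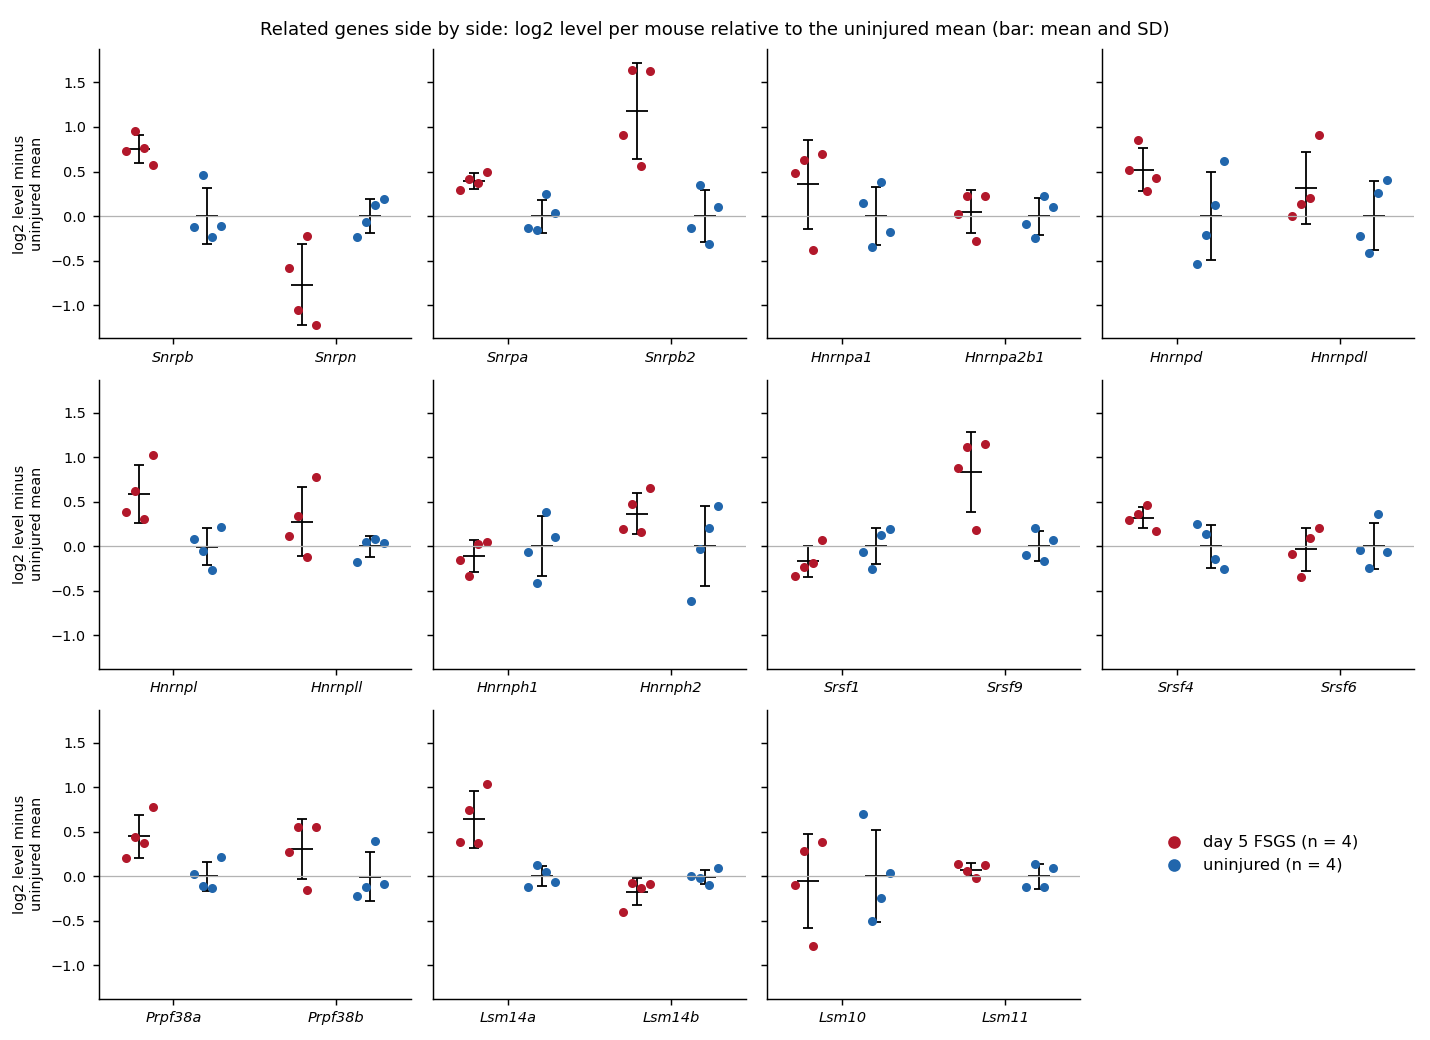
Log2 level per mouse relative to the gene's uninjured mean for 11 pairs of related genes, day 5 FSGS (red) left of uninjured (blue) for each gene; bars give the mean and SD of 4 mice. Snrpb lies above 0 and Snrpn below it in all 4 day 5 mice, and Srsf9 lies above 0 while 3 of the 4 day 5 points of Srsf1 lie below it.

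The mice did not contribute evenly. Day 5 replicate 3 was the lowest day 5 mouse in 38 of 71 members and in 9 of the 11 that rose, and day 5 replicate 2 was the highest in 9 of those 11. Averaged over all members, the difference from the uninjured mean was 0.16, 0.28, 0.07 and 0.32 in day 5 replicates 1 to 4, against -0.05, -0.03, 0.04 and 0.04 in uninjured replicates. Day 5 replicate 3 was thus nearest to baseline, though above every uninjured mouse. The same mouse had the lowest macrophage marker level of the day 5 group, 8.95, where replicates 1, 2 and 4 had 10.15, 10.44 and 10.55. It also had the highest proximal tubule level of that group, 9.98, where replicates 1, 2 and 4 had 9.38, 8.93 and 7.77. Markers of dividing cells, 7 of 10 measured and 2 called higher at 0.05, averaged 6.15, 6.33, 5.19 and 6.92 in day 5 replicates 1 to 4, against 5.25 to 5.31 in uninjured mice. Genes induced by tissue dissociation, 10 of 10 measured and 4 called higher, averaged 9.58, 9.46, 8.89 and 9.79 in day 5 CoRL and 8.67 to 9.0 in uninjured CoRL. T and B cell markers had the higher mean in day 5 CoRL for 7 of 7 measured. They averaged 6.40, 6.83, 6.12 and 6.07 in day 5 CoRL and 4.87 to 5.73 in uninjured CoRL. The 3 called were the T cell genes Cd3d, Cd3e and Cd3g. No B cell gene was called, with changes of 0.05 for Cd79a and 0.57 for Cd79b, and Ms4a1 was detected on no array. Endothelial markers were higher for 8 of 8 with none called, and averaged 6.93, 6.73, 8.48 and 7.24 in day 5 replicates 1 to 4, against 6.32 to 7.19 in uninjured CoRL. Whether any of these moved the splicing genes was not tested.

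**Figure D4:**
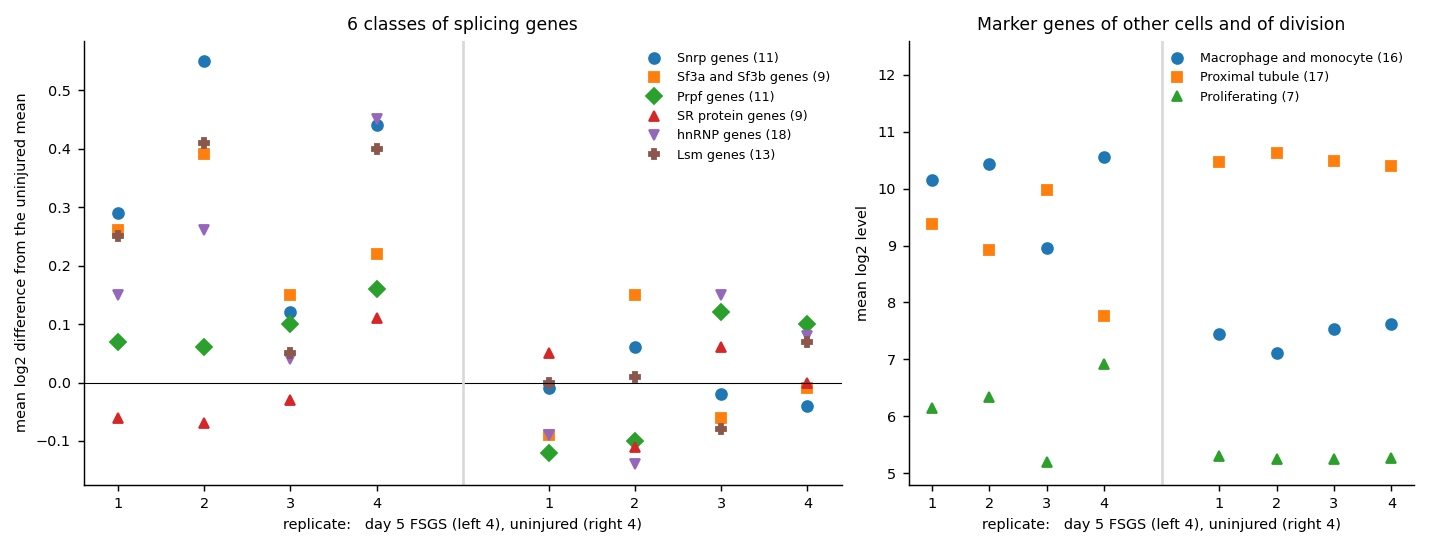
Left, mean log2 difference from the uninjured mean over the genes of each of 6 classes, per mouse; right, mean log2 level of macrophage, proximal tubule and proliferation markers in the same mice, day 5 FSGS replicates 1 to 4 left of the uninjured replicates in both panels. Day 5 replicate 3 has a Snrp class mean of 0.12, the lowest of the day 5 mice, and the day 5 macrophage level nearest to baseline.

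Promoter windows were examined for what members share in sequence. They run from 170 bases before to 30 bases after an annotated RefSeq start (GRCm38.p6), and 62 of the 71 members were matched, with 83 starts. Windows are shown for 5 genes that rose and for Snrpd3, which fell, so that the letters behind the counts can be read. Capitals mark the motifs found, written for the strand of the gene.
Snrpg (chr6:86371370-86371569, plus strand): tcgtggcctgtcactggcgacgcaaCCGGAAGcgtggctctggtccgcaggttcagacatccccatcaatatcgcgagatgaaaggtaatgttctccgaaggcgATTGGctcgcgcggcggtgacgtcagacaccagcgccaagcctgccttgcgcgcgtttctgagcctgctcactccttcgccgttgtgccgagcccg
Snrpb2 (chr2:143062899-143063098, plus strand): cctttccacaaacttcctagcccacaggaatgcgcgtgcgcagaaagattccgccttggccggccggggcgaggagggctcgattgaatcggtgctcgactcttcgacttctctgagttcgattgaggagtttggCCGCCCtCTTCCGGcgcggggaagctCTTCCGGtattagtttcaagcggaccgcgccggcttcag
Sf3b3 (chr8:110846774-110846973, minus strand): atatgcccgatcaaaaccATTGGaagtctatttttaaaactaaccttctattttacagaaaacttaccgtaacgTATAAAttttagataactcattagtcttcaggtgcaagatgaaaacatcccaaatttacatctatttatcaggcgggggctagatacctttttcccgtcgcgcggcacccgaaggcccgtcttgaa
Lsm3 (chr6:91515865-91516064, plus strand): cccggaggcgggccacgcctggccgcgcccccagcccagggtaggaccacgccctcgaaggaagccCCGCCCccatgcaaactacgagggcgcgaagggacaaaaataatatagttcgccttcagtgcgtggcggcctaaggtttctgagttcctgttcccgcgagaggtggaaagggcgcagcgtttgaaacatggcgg
Srsf9 (chr5:115327007-115327206, plus strand): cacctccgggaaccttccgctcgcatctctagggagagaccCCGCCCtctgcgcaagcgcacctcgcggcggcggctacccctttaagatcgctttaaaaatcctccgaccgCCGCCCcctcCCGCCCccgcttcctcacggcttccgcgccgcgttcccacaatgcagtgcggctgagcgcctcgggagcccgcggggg
Snrpd3 (chr10:75517872-75518071, plus strand): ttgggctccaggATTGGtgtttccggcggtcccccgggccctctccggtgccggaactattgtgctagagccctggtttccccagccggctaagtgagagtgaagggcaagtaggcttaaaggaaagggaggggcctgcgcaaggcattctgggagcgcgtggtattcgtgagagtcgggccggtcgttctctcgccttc

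Each motif was searched on both strands. The ETS core was read as CCGGAAG, which is CTTCCGG on the other strand. The CCAAT box was read as CCAAT or, on the other strand, as ATTGG. The GC box was read as GGGCGG, which is CCGCCC on the other strand. The E-box was read as CACGTG, the same on both strands, and the TATA box as TATAAA, which on the other strand reads TTTATA. No motif overlaps another in the windows shown. The ETS core stood in 22.9% of member windows against 7.41% of all 32851 windows. The CCAAT box stood in 43.4% against 29%, the GC box in 59% against 32%, the E-box in 12% against 5.47% and the TATA box in 4.82% against 9.18%. Among the 11 genes that rose, 9 were matched with 10 starts, of which 4 held the ETS core (Prpf19, Sf3a3, Snrpb2 and Snrpg), 5 the CCAAT box, 3 the GC box, 1 the TATA box and 0 the E-box. The 32851 windows were taken without regard to detection here, while most members were detected. No share over detected genes was counted, so whether these differences are particular to splicing genes was not tested. These are counts of letters, starts of 1 gene share sequence, and binding was not measured.

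Other genes of splicing were read from a list of 137 genes in 5 groups, of which 121 were measured. At an adjusted p of at most 0.05, 11 were higher and 2 lower in day 5 CoRL. The share higher was 9.09%, against 8.52% of all genes higher and 5.81% lower. Most of the 121 had a probe detected on all arrays of a group. Among all genes of that kind, 17.6% were called higher and 10.8% lower, so the companion share higher lay below theirs. The mean was higher in day 5 CoRL for 84 of 121 (69.4%), against 44.7% of all genes and 52% of genes of that kind. The 52 spliceosome genes had 6 higher and 0 lower with a median of 0.10. Before adjustment 12 of the 52 were higher and 3 lower at 0.05. The unadjusted shares over all genes were 15% higher and 15.5% lower. Among genes with a probe detected on all arrays of a group they were 27% and 25.3%. The 6 spliceosome genes called higher included Dhx38, a helicase of the second catalytic step, at 0.94 (SE 0.22, adjusted p = 0.0274). Snrnp200, the helicase that unwinds U4 from U6, was another, at 0.39 (SE 0.10, adjusted p = 0.0348). Among spliceosome genes with a probe detected on all arrays of a group the lowest change was that of Rnpc3, a protein of the minor spliceosome, at -0.73 (SE 0.21, adjusted p = 0.056). Before adjustment, 7 of the 16 exon junction and export genes were higher and 1 lower, to be read against the same unadjusted shares. None of the 16 passed after adjustment, and their median was 0.35. They ran from Thoc3 at -0.24 (adjusted p = 0.0966) to Thoc5 at 0.69 (adjusted p = 0.151), both subunits of the THO complex that couples transcription to export. Among 12 snRNP assembly genes only Tgs1, which adds the trimethyl cap to snRNAs, passed, at 0.99 (SE 0.25, adjusted p = 0.0366), and Gemin4, of the SMN complex, was at -0.07 (adjusted p = 0.75).

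Companion genes past the study's threshold were a splicing regulator and a kinase of SR proteins. Clk3, which phosphorylates SR proteins, read 8.82, 9.04, 8.74 and 8.86 in day 5 CoRL against 7.98, 7.98, 7.90 and 7.61 in uninjured CoRL. All day 5 mice were higher, by 1.00 on average (SE 0.12, adjusted p = 0.0053). Srpk1, another SR protein kinase, had a change of -0.44 (SE 0.16, adjusted p = 0.0938), and the 7 kinase genes measured had a median of -0.09. Celf2, a regulator that binds GU-rich sequence, read 9.50, 9.99, 8.75 and 10.01 in day 5 CoRL against 7.10, 7.22, 7.74 and 7.92 in uninjured CoRL, a change of 2.07 (SE 0.31, adjusted p = 0.00781). Its day 5 values ran low in replicate 3. That mouse had the lowest macrophage, dividing cell and dissociation marker levels of its group and the highest proximal tubule and endothelial levels. What moved Celf2 was not tested. Celf1 fell by 0.46 on the log2 scale (SE 0.10, adjusted p = 0.0223), and Tardbp, which encodes TDP-43, fell by 0.80 (SE 0.21, adjusted p = 0.0364), both in all 4 day 5 mice relative to every uninjured mouse. The 34 regulators had 3 higher (8.82%) and 2 lower at 0.05, with a median of 0.25. Over all genes 8.52% were higher and 5.81% lower. Among genes with a probe detected on all arrays of a group, 17.6% were higher and 10.8% lower.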

How the data were processed

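Levels were measured in sorted CoRL of 4 day 5 FSGS and 4 uninjured mice. The deposited table that was used holds an intensity on a linear scale for each of 25697 probes, not normalised, and a detection p-value against negative controls. The deposited second table holds the authors' processed signal after quantile normalisation with lumi, of a version not given in the sources, and served as an alternative. Of the probes, 23978 have 1 symbol in the platform annotation and 1719 are unnamed here. No source used here names the software that summarised the beads.

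Intensities were corrected by normexp with an offset of 16, using detection p-values to infer the background, taken to log2 and quantile normalised over all probes with limma 3.58.1 in R 4.3.3, and the named probes of a gene were averaged. lmFit and eBayes compared the groups (two-sided), with group as the only term, with the Benjamini-Hochberg adjustment made over 16593 genes. Calls were made at the study's 0.01 and, as a wider call, at 0.05. The procedure was tested on simulated data, with planted changes larger than those of most members, in genes of above-median level. Recovery of smaller changes was not examined. The number of arrays limits the precision. The methods' tests, a Bayesian test rebuilt from the CyberT formula with a confidence of 10 and an unequal-variance test, were alternatives, as were other background corrections, scalings, probe rules, variance models, array weights, a replicate block and leaving out mice.

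The members and lists were chosen with earlier results of these data known. Named were members called at 0.01, the 2 highest and 2 lowest changes among detected members of each class, paralog pairs, members with probes in opposite directions, and the highest and lowest detected gene of each companion group. Hnrnpc, Lsm3, Sf3a3 and Snrpd1 were added because they passed 0.05, and other genes to complete a class or group, all after their values were seen. The groups of Sm, U2 and U6 ring genes were made after the values were seen. Genes without a named probe and probe sequences were not analysed here. Whether arrays shared a chip or a day was not given.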

Additional observations from a re-analysis of the deposited data

Results flagged for a closer look

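In 90 groups of 4 mice (45 named members in both conditions), 1 array stood apart from the other 3 by Dixon's criterion for 5 genes, about the number chance gives, since it marks about 1 group in 20. Sf3a3 was 8.41 in day 5 replicate 3, against 8.80 to 8.84 in the other day 5 mice. Sf3b3 was 6.78 in uninjured replicate 1, against 7.45 to 7.54 in the other uninjured mice, and Hnrnpll was 7.66 in the same mouse, against 7.88 to 7.92. Uninjured replicate 1 is the array with the fewest detected probes, 5793. In uninjured replicate 3, Lsm3 was 8.11 against 8.30 to 8.32, and Srsf10 was 6.87 against 6.60 to 6.65.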

How the results depend on the processing

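All 12 genes called at 0.05 kept their direction under every one of the 21 alternatives. The intensity trend, Bayesian, unequal-variance and block settings use the same levels and could not change a direction. The 12 were chosen by their calls in these same mice, so a kept direction is no separate support. Of these 12 calls, 10 were kept with median scaling, 6 with 75th percentile scaling, 8 with an intensity trend, 4 by the Bayesian test, 0 by the unequal-variance test and 5 with the replicate number as a block. Over 55 named genes and their alternatives (1153 values), 932 kept their direction and side of 0.05, 126 lost a call, 53 gained one and 42 uncalled values changed sign. At 0.01 the number of members called, 0 by limma, was 1 without background correction, with median scaling, in the authors' table, with the brightest probe of a gene and with each probe alone, 2 with 75th percentile scaling and with detected probes only, 3 by the methods' Bayesian test, 7 with array weights, and 6 without uninjured replicate 1 and day 5 replicate 3 together. The share at 0.01 was 9.86% of members against 8.76% of all genes with array weights, 8.45% against 10.4% without both mice, 4.23% against 9.87% by the Bayesian test, and under that of all genes in the other gene-level settings just named. Those called higher at 0.05, 11 in all, were 19 with median scaling (26.8% against 10% of all genes) and with array weights (26.8% against 11.5%), 5 by the Bayesian test (7.04% against 9.39%) and 0 by the unequal-variance test (against 0.0904%), where 21 were higher and 2 lower at a p under 0.05 before adjustment. Those called lower, 1 in all, were 4 with 75th percentile scaling (5.63% against 26.9% of all genes), Snrpd3 not among them. They were 2 without background correction, in the authors' table, with detected probes only, with array weights and without both mice together. The Bayesian test called 1 lower, Snrpn in place of Snrpd3. There were 0 with median scaling, with an intensity trend and by the unequal-variance test. Leaving out 1 mouse gave 0 to 8 members at 0.01 (8 without day 5 replicate 3, 11.3% against 11.5% of all genes), 1 to 15 higher, 0 to 2 lower and a median of 0.13 to 0.24. The median of 0.20 was 0.45 with median scaling, 0.11 with 75th percentile scaling and 0.31 with detected probes only. Median and 75th percentile scaling put the median of all genes at -0.18 and -0.52. Members lay 0.63 above it in both, which is 1 result, since either scaling moves all genes of an array by the same amount. Causes were not tested.

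Deviations from the group mean of mice with the same replicate number correlated at 0.0611, -0.0916, -0.0709 and 0.111. Mice of unlike number were not compared, so whether the replicate number pairs the mice cannot be told from these values. With the number as a block, 6 members were higher, 0 lower and 0 at 0.01. With 4 mice a group the median standard error was 0.16, and changes near that size could not be told from 0.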
